A study of Rattus norvegicus with 174 samples.

Results

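The liver was examined 3 h after inhalation of phosphine, a toxic fumigant gas, in 4 exposed rats and 4 rats that breathed air. These 8 arrays were chosen by their titles from 174 arrays of 33 rats, and every gene with a probe set assigned to it alone was kept, which gave 13438 genes. The rats were male Sprague-Dawley, an outbred stock, fed freely on chow, and their age was not given. Exposed rats (Rat728, Rat729, Rat730 and Rat731) breathed 660 ppm for 32.2 min in a whole-body chamber, which gave a dose of 21252 ppm x min and lay at 0.91 of the median lethal value (LCt50). Air rats (Rat732, Rat733, Rat738 and Rat739) breathed 0 ppm. All 8 were killed under ketamine and xylazine, so these agents were shared by both groups. The liver is a model of whole tissue here, since it was frozen and pulverised without separating cell types. In such bulk samples fewer cells of a type and less RNA per cell cannot be told apart.

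Phosphine is known as an inhibitor of mitochondrial respiration. The liver keeps blood glucose up between meals by gluconeogenesis, which draws on carbon from amino acids, while the urea cycle disposes of their nitrogen. Glucagon acts through cyclic AMP and the factor CREB, the adrenal hormone corticosterone acts through the glucocorticoid receptor, and the coactivator PGC-1alpha (Ppargc1a) joins both inputs to gluconeogenic and mitochondrial genes. The liver also runs a circadian clock of its own, whose Per genes respond to feeding and to glucocorticoids.

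Values are log2 signals, in which a difference of 1 is a 2-fold change. Differences are phosphine minus air ± the standard error (SE) of the limma fit. Each has n = 4 and 4, except at 6 h, where the air group has 2 livers. The value padj is limma's p after Benjamini-Hochberg adjustment across all 13438 genes. A gene was called at padj under 0.05. For a gene with several probe sets, the brightest was used.

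The tissue carried its label. The mean of 9 hepatocyte markers lay between 12.9 and 13.1 on all 8 arrays, with albumin (Alb) near the top of the scale. None of the 15 lists of cell type markers held a called gene, where 3.85% of all genes were called. The lists included those of Kupffer cells, endothelium, neutrophils and T cells. However, 7 of 8 neutrophil and 8 of 9 T and NK cell markers lay at or under the median level of all probe sets. So did 3 of 4 B cell, 4 of 7 cholangiocyte, 4 of 5 adipocyte, 5 of 7 pancreas and 6 of 8 kidney tubule markers. The same held for all 6 lung and all 7 striated muscle markers. The lack of calls therefore says little about those cells. The exposed liver of Rat730 stood apart. The mean of its 7 striated muscle markers was 4.67, against 2.92 to 3.17 in the other exposed livers and 3.07 to 3.17 in air. Ckm, muscle creatine kinase, was at 7.53 there and at most 3.24 on the other 7 arrays, and Mb, myoglobin, was at 6.24 against at most 3.66. Its 9 endothelial markers had the lowest mean of the 8 arrays, 6.11 against 6.54 to 7.04, and its 9 macrophage markers likewise, 8.14 against 8.55 to 8.83. Results that rest on Rat730 are therefore also given without it. The part of these transcripts in the results was not tested. In Rat731 the surfactant gene Sftpc was at 4.27, against at most 3.04 elsewhere. RNA integrity was read from 3 control transcripts with probe sets at both ends, whose 3' excess grows as RNA breaks down. The mean log2 excess was 0.647 ± 0.237 (SD, n = 4) in exposed and 0.479 ± 0.138 (SD, n = 4) in air livers, and a two-sided exact permutation test gave p = 0.286, where 0.0286 is the smallest that 4 against 4 allow.

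At 3 h 518 genes were called, which is 3.85% of those tested, with 267 higher (1.99%) and 251 lower (1.87%). Of these, 122 differed at least 2-fold, 70 higher and 52 lower. The groups did not overlap in 476 of the 518 called genes, and in 1543 genes (11.5%) overall. The median difference over all genes was -0.01. Without Rat730 the count was 331, with 210 higher and 121 lower, so that the share of higher calls rose from 51.5% to 63.4%. Of 79 named called genes, 16 were not called without Rat730, with padj from 0.0509 to 0.158: Atf6, Bhlhe40, Ccl4, Crem, Dusp1, F5, Hnf4a, Igfbp4, Krt10, Per1, Prdx6, RGD1559600, Rsrp1, Slc16a6, Slc34a2 and Xiap. It was also more than 1.5 times lower without air Rat732 (327), Rat738 (308) or Rat739 (333). With the air livers of all 4 times pooled as the control it was 974, and higher genes were 40.8% of them.

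**Figure D1:**
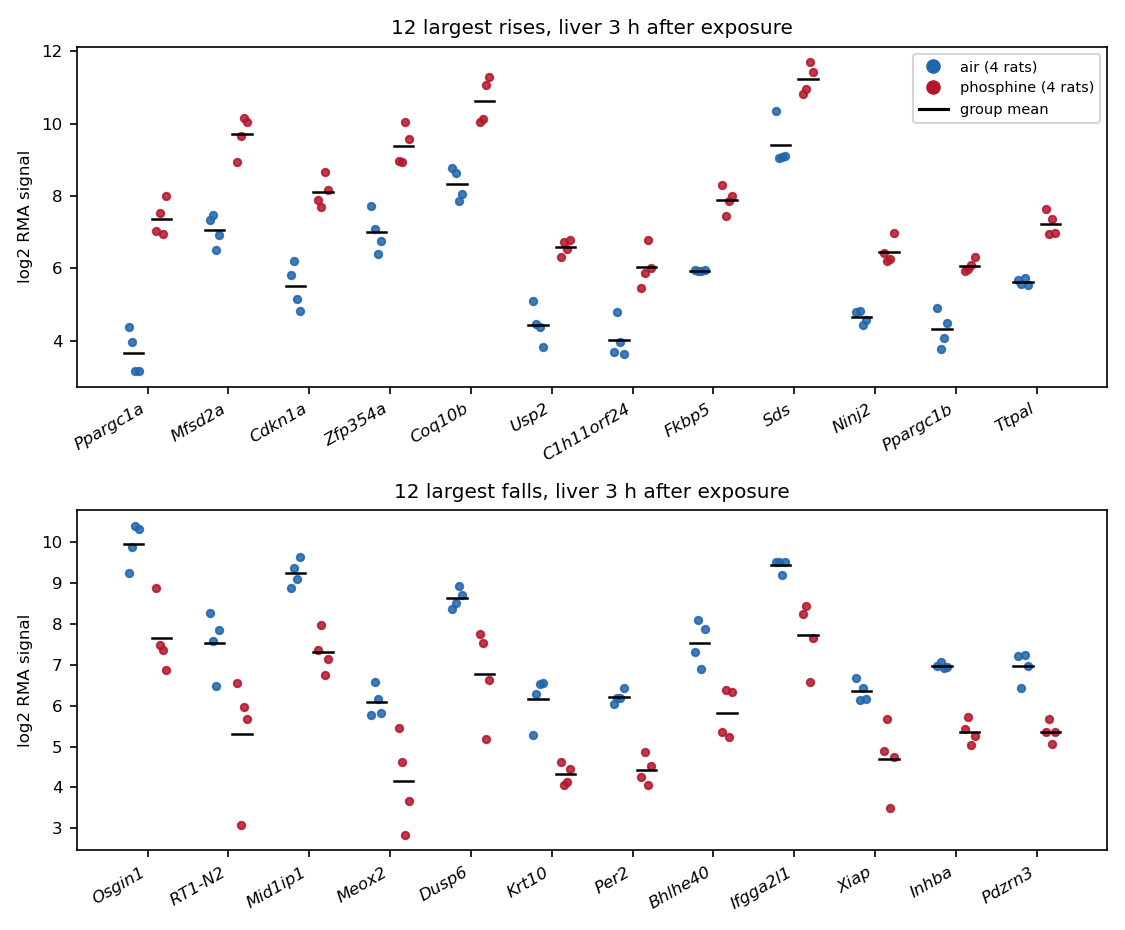
Log2 signals (vertical axis) of the 12 genes with the largest rise and the 12 with the largest fall in liver at 3 h, among called genes named by the rule. Points are single rats, blue for 4 air and red for 4 phosphine rats, and lines are group means. In Ppargc1a the exposed rats sit between 6.96 and 7.99 and the air rats between 3.15 and 4.38.

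Of 22 measured genes of the gluconeogenesis and fasting list, 5 were higher and 0 lower (22.7% called, against 3.85% of all genes), and the median was 0.19. The called genes described below are more than these 5, so not all of them are list members. Other regulators on the list, such as the CREB coactivator Crtc2 (-0.10, padj = 0.871) and the fasting factor Creb3l3 (-0.05, padj = 0.911), did not pass. Ppargc1a was at 7.03, 7.51, 6.96 and 7.99 in the exposed rats and at 4.38, 3.96, 3.15 and 3.16 in the air rats. All exposed values lay above all air values, and the rise of 3.71 ± 0.42 (13.1-fold, padj = 1.06e-05) was the largest of a called gene. Ppargc1b, a related coactivator, was at 5.93, 5.99, 6.08 and 6.30 against 4.9, 3.78, 4.07 and 4.49, a rise of 1.77 ± 0.26 (padj = 0.000179). Pprc1, the remaining member of that coactivator family, rose by 1.45 ± 0.38 (padj = 0.0285), but lost the call in 7 of 17 alternative settings, with padj = 0.104 against the air livers of all times pooled. Foxo1, the insulin-restrained transcription factor of gluconeogenesis, rose by 1.24 ± 0.25 (padj = 0.00333), from 5.78 to 6.08 in air to 6.60 to 7.79. Another of the 3 probe sets of Foxo1 differed by -0.23, and with probe sets averaged its padj was 0.0886. Got1, the cytosolic aspartate aminotransferase of the malate-aspartate shuttle, was at 11.23, 11.33, 11.56 and 11.78 against 10.44, 9.79, 10.10 and 9.48, and rose by 1.52 ± 0.18 (padj = 1.44e-05). Hnf4a, a hepatocyte transcription factor, was higher by 0.42 ± 0.10 (padj = 0.0185), and was not called without Rat730 (padj = 0.0613).

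The best known enzymes of gluconeogenesis did not pass the test. Pck1, which commits oxaloacetate to glucose, differed by 0.13 ± 0.14 (padj = 0.729), at a level near 12.7 in exposed livers. G6pc1, which releases free glucose, differed by 0.19 ± 0.29 (padj = 0.835). Fbp1 and Pc differed by 0.02 and 0.14. Without Rat730 the list had 4 members higher and 0 lower.

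The cyclic AMP list overlaps with this one. Of 20 measured members 3 were higher (Ppargc1a, Per1 and Crem) and 1 lower (Dusp1). Among all genes tested 1.99% were higher and 1.87% lower. The median difference of the cyclic AMP list was -0.04, close to the -0.01 of all genes, so the list as a whole showed no shift. Its counts without Rat730 were 1 higher and 0 lower. Crem, whose inducible short form represses CREB targets, rose by 0.53 ± 0.15 (padj = 0.0437), from 9.38 to 9.65 in air to 9.84 to 10.10. Another of its 5 probe sets differed by -0.26, and Crem lost the call in 7 of 17 alternative settings. Dusp1, a phosphatase of MAP kinases, was at 8.76, 9.95, 8.94 and 9.45 against 11.21, 10.17, 10.75 and 10.74, and fell by 1.44 ± 0.42 (padj = 0.0493). The groups of Dusp1 did not overlap, yet the call was lost in 10 of 17 alternative settings.

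Ppargc1a and Crem, which rose, and Dusp1, which fell, have the full CREB site TGACGTCA in a promoter of the RefSeq table (GRCr8, 250 bases before to 50 after a start), and the sites are shown because the same letters stand before genes that moved in opposite directions. Each line is 100 bases, 5′ to 3′, with the site in capitals.
Ppargc1a, chr14:63634088-63634187, plus strand, site from 181 bases upstream: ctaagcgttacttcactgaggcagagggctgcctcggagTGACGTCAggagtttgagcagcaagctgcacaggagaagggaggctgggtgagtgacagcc
Crem, start 2 of 3 listed, chr17:58984697-58984796, plus strand, site from 56 bases upstream: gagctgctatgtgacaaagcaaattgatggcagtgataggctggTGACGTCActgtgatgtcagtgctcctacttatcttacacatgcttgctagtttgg
Crem, start 3 of 3 listed, chr17:58985390-58985489, plus strand, site from 35 bases upstream: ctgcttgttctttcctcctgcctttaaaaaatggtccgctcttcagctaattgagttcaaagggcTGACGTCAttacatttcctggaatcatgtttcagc
Dusp1, chr10:17184689-17184788, plus strand, site from 124 bases upstream: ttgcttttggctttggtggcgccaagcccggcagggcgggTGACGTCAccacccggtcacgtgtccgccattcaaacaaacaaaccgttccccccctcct

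The search covered 7 motifs on both strands, at the start listed before the others for each of 27457 genes. The CREB site TGACGTCA was in 1.91% of all promoters and in 2.89% of those of 11089 tested genes. It was in 12 of 231 promoters of higher genes (5.19%) and in 2 of 215 of lower genes (0.93%). Its shorter form TGACG, which every full site contains, was in 29.4% of tested promoters, 39.0% of higher and 22.8% of lower genes. At its first listed start Crem has only this shorter form, so Crem is not among the 12 higher genes with the full site. Dusp1 is 1 of the 2 lower genes with the full site. The E-box CACGTG, bound by clock and MYC family factors, was in 8.95% of tested promoters, in 42 of the 231 of higher genes (18.2%) and in 15 of the 215 of lower genes (6.98%). Shares among tested, higher and lower genes were 1.97%, 1.73% and 3.26% for the D-box TTATGNAA. They were 0.343%, 0.0% and 0.465% for the glucocorticoid receptor consensus, 2.38%, 1.73% and 2.33% for the FOXO site TGTTTAC, and 5.4%, 5.19% and 3.72% for the AP-1 site TGANTCA. A match is a description of letters and not a binding site.

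Of 29 measured genes of the urea cycle and amino acid list, 7 were higher and 0 lower (24.1% of members, against 3.85% of all genes), with a median of 0.21. Sds, serine dehydratase, which turns serine into pyruvate, was at 10.83, 10.96, 11.69 and 11.42 against 10.35, 9.06, 9.07 and 9.10, and rose by 1.83 ± 0.31 (padj = 0.000589). Air Rat732 was well above the other air rats, and below every exposed rat. Slc25a15, the mitochondrial ornithine carrier of the urea cycle, was at 11.23, 11.32, 11.54 and 11.83 against 10.64, 10.44, 10.26 and 10.31, a rise of 1.07 ± 0.13 (padj = 2.92e-05). Aass, which begins lysine breakdown, rose by 0.84 ± 0.14 (padj = 0.000589), from 10.56 to 10.78 in air to 11.41 to 11.56. Asl, argininosuccinate lyase, rose by 0.69 ± 0.13 (padj = 0.00229), and Tdo2, which begins tryptophan breakdown, by 0.51 ± 0.10 (padj = 0.00233). The neighbouring cycle enzymes Cps1 (0.19), Ass1 (0.18) and Arg1 (0.27) did not pass the test, and Otc differed by -0.25 (padj = 0.0948). Tat, tyrosine aminotransferase, differed by 0.70 ± 0.23 (padj = 0.0939). Without Rat730 the list held 7 higher and 1 lower, and over the 8 left-out rats it held from 7 to 10 higher. Got1, described above, was also among the 7 of the main fit. Tdo2 is counted again among glucocorticoid responsive genes. Shares of lists with common members are not independent.

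Carriers outside this list were among the larger rises. Slc25a29, a mitochondrial carrier of basic amino acids, rose by 1.42 ± 0.19 (padj = 5e-05), from 5.16 to 5.71 in air to 6.47 to 7.48. Mfsd2a, a transporter of lysophosphatidylcholine that fasting induces in mouse liver, was at 8.94, 9.67, 10.15 and 10.04 against 7.34, 7.48, 6.50 and 6.92, a rise of 2.64 ± 0.45 (padj = 0.000745). Slc16a6, a carrier of ketone bodies in zebrafish liver, rose by 1.48 ± 0.40 (padj = 0.0355), and was not called without Rat730 (padj = 0.138).

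Of 25 genes of the respiratory chain and mitochondrial biogenesis 1 was higher and 0 lower, with a median of -0.01. This share, 4.0%, is close to the 3.85% of all genes. That gene was Coq10b, which binds coenzyme Q, at 10.04, 10.14, 11.07 and 11.30 against 8.78, 8.63, 7.86 and 8.06. It rose by 2.31 ± 0.35 (padj = 0.000244). Cox4i1, Ndufs1, Sdha and Atp5f1b, subunits of complexes of the chain and of ATP synthase, differed by 0.06, -0.01, -0.13 and -0.08. Tfam, the packaging factor of mitochondrial DNA, differed by -0.14 (padj = 0.53). Mrps2, of the mitochondrial ribosome, rose by 0.83 ± 0.12 (padj = 0.000144).

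Shares of called lipid genes ran from 0.0% to 9.52% per list, against 3.85% of all genes. Of 23 fatty acid oxidation genes only Cpt2, the inner carnitine palmitoyltransferase, rose (0.56 ± 0.11, padj = 0.00354), while its outer partner Cpt1a differed by 0.62 ± 0.22 (padj = 0.134). Of 21 fatty acid and triglyceride genes 1 was higher and 1 lower. Pnpla2, the lipase that starts triglyceride breakdown, rose by 0.88 ± 0.17 (padj = 0.00324). Mid1ip1, an activator of acetyl-CoA carboxylase, was at 7.37, 7.97, 6.75 and 7.15 against 8.88, 9.36, 9.10 and 9.64, and fell by 1.94 ± 0.26 (padj = 5e-05). Fasn (-0.35), Acaca (0.10), Scd (0.28) and Srebf1 (-0.26) did not pass. Of 17 cholesterol genes only Insig2, which retains SREBP in the endoplasmic reticulum, was called, and it fell by 0.82 ± 0.14 (padj = 0.000589). In the lists of bile acid genes (21 measured) and of apolipoproteins (20 measured) limma called 0. Cyp7a1, which commits cholesterol to bile acids, differed by 0.52 ± 0.26 (padj = 0.33). Nr0b2, a repressor of Cyp7a1, was at 5.51, 5.21, 5.62 and 6.44 against 7.54, 7.56, 7.45 and 7.43, with no overlap, and the difference of -1.80 ± 0.60 had padj = 0.0994. Por, the reductase that feeds electrons to cytochromes P450, rose by 1.39 ± 0.19 (padj = 6.01e-05), the only call among 21 drug metabolism genes.

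**Figure D2:**
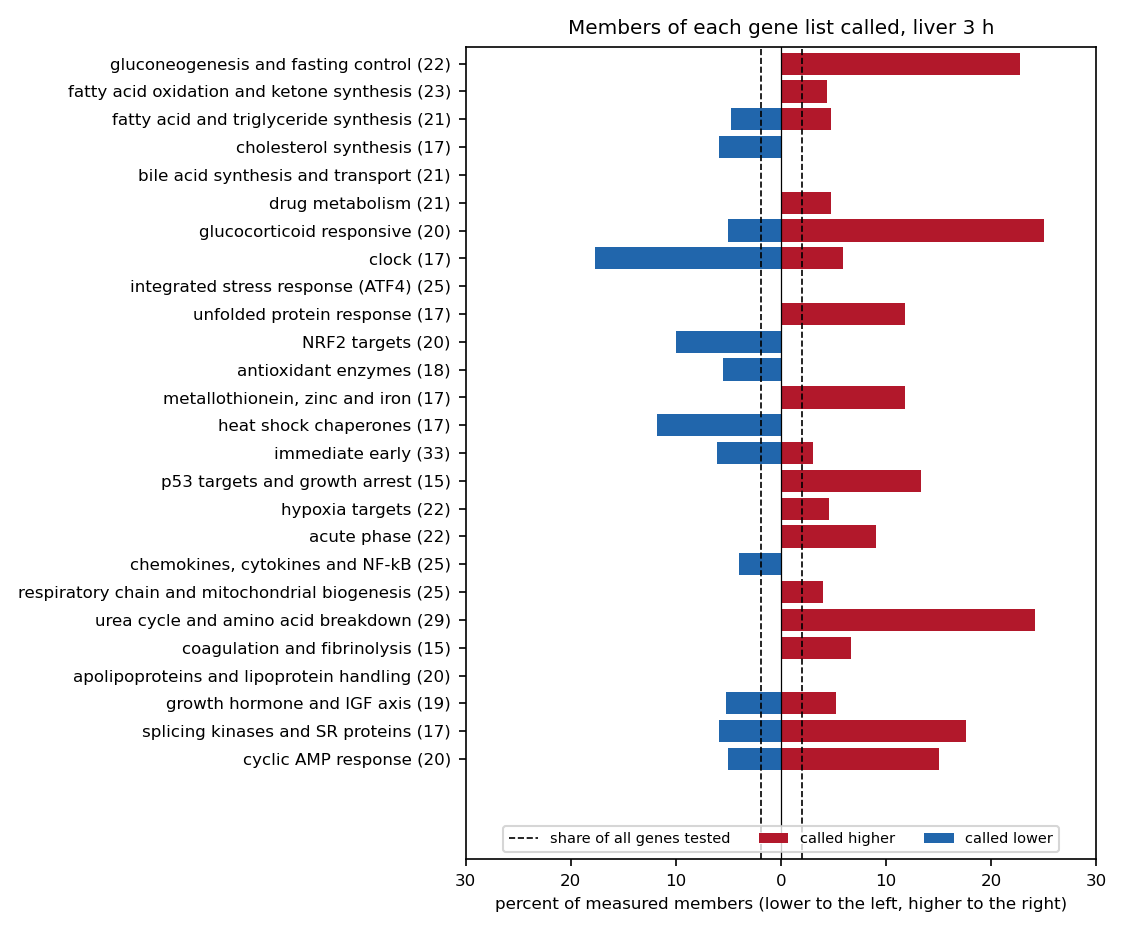
Percent of measured members (horizontal axis) of each functional list called higher (red, to the right) or lower (blue, to the left) in liver at 3 h. Numbers in brackets are measured members, and dashed lines mark the shares of all genes tested, 1.99% higher and 1.87% lower.

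Glucocorticoid responsive genes had 5 of 20 members higher and 1 lower (30% called, against 3.85% of all genes), with a median of 0.28. Fkbp5, a co-chaperone that damps the glucocorticoid receptor, was at 8.30, 7.44, 7.86 and 7.99 against 5.95, 5.93, 5.92 and 5.96. The 4 air rats lay within a narrow band and all exposed rats well above it, a rise of 1.96 ± 0.19 (3.9-fold) with the smallest padj of all genes, 1.32e-06. Cdkn1a, the p21 inhibitor of cell division, was at 7.88, 7.69, 8.65 and 8.17 against 5.82, 6.21, 5.15 and 4.81, and rose by 2.60 ± 0.36 (padj = 7.29e-05). The air level of Cdkn1a was not steady between times, with means of 7.03 at 1 h, 5.50 at 3 h, 4.39 at 6 h and 6.43 at 24 h. Pik3r1, the regulatory subunit of PI3 kinase, rose by 0.85 ± 0.18 (padj = 0.00681), and Per1 and Tdo2 were the other members that rose. The fall was that of Dusp1. Tsc22d3 (0.71, padj = 0.237), Klf9 (0.54, padj = 0.0511) and Sgk1 (-0.64, padj = 0.428), which the receptor is also known to induce, did not pass. Without Rat730 the counts were 4 higher and 0 lower, and with only the 2 groups in the fit 3 and 1.

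Of 15 measured p53 targets and growth arrest genes 2 were higher, Cdkn1a and Ccng1 (0.67 ± 0.16, padj = 0.0132), and 0 lower, and the median was -0.16. The share called was 13.3%, against 3.85% of all genes. Mdm2, a p53 target, differed by -0.51 (padj = 0.0538). Rb1, the retinoblastoma protein that holds cells before S phase, was at 6.41, 6.43, 5.66 and 6.08 against 7.73, 7.42, 7.85 and 7.47, and fell by 1.47 ± 0.16 (padj = 1.05e-05). Usp2, a deubiquitinase, rose by 2.16 ± 0.36 (padj = 0.000589), but its exposed mean of 6.59 lay below the air mean at 6 h of 6.83.

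The clock list had 1 of 17 members higher and 3 lower (23.5% called, against 3.85% of all genes). Members of one family moved apart. Per1 was at 5.58, 6.06, 6.75 and 6.30 against 5.04, 5.31, 4.14 and 4.70, and rose by 1.38 ± 0.36 (padj = 0.0257). Per2 was at 4.27, 4.87, 4.07 and 4.53 against 6.04, 6.19, 6.18 and 6.42, and fell by 1.77 ± 0.35 (padj = 0.00324). Both encode repressors of the clock, and neither pair of groups overlapped. The other probe set of Per2 differed by 0.19. Bhlhe40, another repressor, fell by 1.71 ± 0.44 (padj = 0.0253), and Nr1d2, a nuclear receptor of the clock, by 0.79 ± 0.19 (padj = 0.0143). Dbp (-1.29, padj = 0.138) and Nr1d1 (-0.96, padj = 0.154), outputs that cycle with these genes, did not pass, and Bmal1, Clock and Cry1 differed by 0.09, 0.14 and -0.04. Without Rat730 the counts were 0 higher and 2 lower. Air means of Per2 ran from 5.50 at 1 h through 6.21 at 3 h to 7.43 at 6 h, and those of Nr1d2 from 7.0 at 24 h to 9.22 at 6 h, so that the exposed mean of Nr1d2, 7.64, lay within the air means of other times.

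Among lists of oxidative and metal stress, the share called was 10.0% for NRF2 targets, 5.56% for antioxidant enzymes and 11.8% for metallothionein, zinc and iron genes, against 3.85% of all genes. Of 20 NRF2 targets 0 were higher and 2 lower. Osgin1, which is induced by oxidative stress, was at 8.88, 7.47, 7.37 and 6.88 against 9.24, 9.88, 10.39 and 10.32, and fell by 2.31 ± 0.39 (padj = 0.000589), the largest fall of a called gene. Txnrd1, thioredoxin reductase, fell by 0.38 ± 0.08 (padj = 0.00489). Hmox1, heme oxygenase, differed by 0.05 ± 0.17 (padj = 0.942). Among 18 antioxidant enzymes only Prdx6, a peroxiredoxin, was called, and it fell by 0.31 ± 0.09 (padj = 0.0424). Prdx6 lost the call in 9 of 17 alternative settings, with padj = 0.114 without Rat730. The metallothioneins Mt1 and Mt2A differed by 0.08 ± 0.70 and 0.32 ± 0.46. In the same list of 17, Tfrc, the transferrin receptor, rose by 1.04 ± 0.26 (padj = 0.0191), and Slc39a14, a zinc and iron importer, by 0.48 ± 0.09 (padj = 0.0013).

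The share called was 11.8% for both heat shock chaperones and unfolded protein response genes, against 3.85% of all genes. The few chaperone calls were falls and those of the unfolded protein response were rises. Of 17 heat shock chaperones 0 were higher and 2 lower, Dnaja1 (-0.72 ± 0.11, padj = 0.000147) and its partner Hspa8 (-0.59 ± 0.14, padj = 0.0143). Hspa8 lost the call in 4 of 17 alternative settings. The chaperones Hspa1b and Hsp90aa1 were not measured. Of 17 unfolded protein response genes 2 were higher and 0 lower. Edem1, which sends misfolded glycoproteins to degradation, was at 11.40, 11.29, 11.76 and 11.89 against 10.72, 10.39, 10.09 and 10.09, a rise of 1.26 ± 0.19 (padj = 0.000147), with 1 of its 4 probe sets at -0.04. Atf6, a sensor of that response, rose by 0.37 ± 0.10 (padj = 0.0355), but lost the call in 9 of 17 alternative settings. Hspa5, the main chaperone of the endoplasmic reticulum, differed by 0.25 (padj = 0.362). In the integrated stress response list limma called 0 of 25, and Atf4, Ddit3 and Trib3 differed by -0.15, -0.02 and 0.61. Of 22 hypoxia targets 1 was called (4.55%), close to the 3.85% of all genes. That gene was Egln1, an oxygen sensor (0.38 ± 0.08, padj = 0.00809). With probe sets averaged the padj of Egln1 was 0.314, and with only the 2 groups in the fit 0.0753. Vegfa and Ldha differed by -0.17 and 0.01.

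The share called was 9.09% for both immediate early and acute phase genes and 4.0% for chemokines and cytokines, against 3.85% of all genes. Of 33 immediate early genes 1 was higher (Crem) and 2 lower, and the median was -0.23. Besides Dusp1 the fall was that of Dusp6, a phosphatase of ERK, at 7.74, 7.52, 5.19 and 6.62 against 8.37, 8.51, 8.91 and 8.69, and fell by 1.85 ± 0.37 (padj = 0.00329). Its lowest value was in Rat730. Of 25 chemokine, cytokine and NF-kB genes only Ccl4 was called, and it fell by 1.02 ± 0.28 (padj = 0.0369) but missed the threshold without Rat730 (padj = 0.15). Il1b, Il6 and Tnf differed by -0.26, 0.14 and 0.08. Of 22 acute phase genes 2 were higher. Il6r, the interleukin 6 receptor, was at 9.41, 9.31, 9.39 and 9.32 against 8.62, 8.10, 7.74 and 7.82, and rose by 1.29 ± 0.21 (padj = 0.000541). Lcn2, lipocalin, rose by 1.19 ± 0.30 (padj = 0.0238), while the classical proteins Fgb (-0.07), Hp (-0.03) and Orm1 (-0.10) did not pass.

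Of 17 splicing genes 3 were higher and 1 lower (23.5% called, against 3.85% of all genes). The serine and arginine rich splicing factor Srsf4 was at 9.71, 9.87, 10.04 and 9.96 against 8.95, 9.23, 8.77 and 9.02, and rose by 0.90 ± 0.11 (padj = 1.44e-05). Srsf2 rose by 0.57 ± 0.13 (padj = 0.0106) and Son by 0.35 ± 0.08 (padj = 0.0129), although another probe set of Son differed by -0.28, while Rsrp1 fell by 0.87 ± 0.19 (padj = 0.00947). Of 19 genes of the growth hormone and IGF list 1 was higher and 1 lower (10.5% called). Igfbp4 rose by 0.42 ± 0.11 (padj = 0.0362), but lost the call in 9 of 17 alternative settings, with padj = 0.158 without Rat730. Inhba, the activin A subunit, fell by 1.61 ± 0.25 (padj = 0.000357), with air rats between 6.92 and 7.06 and exposed rats between 5.03 and 5.72. Of 15 coagulation genes only F5 was called (6.67%), and it rose by 0.40 ± 0.12 (padj = 0.0487). F5 also lost the call in 9 of 17 alternative settings, with padj = 0.0809 without Rat730.

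Several of the largest changes lay outside the lists. Zfp354a, a zinc finger gene, was at 8.97, 8.95, 10.03 and 9.57 against 7.73, 7.09, 6.40 and 6.75, a rise of 2.39 ± 0.49 (padj = 0.00481). C1h11orf24 rose by 2.02 ± 0.34, Ninj2 by 1.81 ± 0.34, Ttpal by 1.60 ± 0.25, Gpatch4 by 1.53 ± 0.29 and Trmt61a by 1.48 ± 0.28, each with groups that did not overlap. Ctdspl rose by 1.45 ± 0.23, with 1 of its 5 probe sets at -0.18, and Fv1 by 1.44 ± 0.21. Among falls, Oaf, a secreted protein, was at 8.18, 8.74, 9.06 and 8.65 against 10.22, 10.20, 10.09 and 10.30, and fell by 1.54 ± 0.17 (padj = 1.06e-05). Kcnj8, a potassium channel subunit of vessel walls, fell by 1.55 ± 0.20, from 5.84 to 6.39 in air to 4.49 to 4.73. Pdzrn3 fell by 1.60 ± 0.26 and the kinase Sgk2 by 1.55 ± 0.32. Krt10, Slc34a2, Xiap and RGD1559600 were also among the falls, and none of these 4 was called without Rat730. Meox2 fell by 1.93 ± 0.37 and the interferon-induced GTPase gene Ifgga2l1 fell by 1.71 ± 0.33, and the lowest value of both was in Rat730 (2.85 and 6.57).

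Further falls were those of RT1-N2 and RT1-T24-3, class I genes of the rat major histocompatibility complex, a region in which outbred rats carry many alleles and near-identical gene copies. RT1-N2 was at 6.56, 3.07, 5.96 and 5.67 against 8.26, 7.58, 6.47 and 7.85, and fell by 2.23 ± 0.51 (padj = 0.0119), with groups that overlapped. In kidney of the same rats, in the same order, it was at 5.52, 3.02, 4.62 and 4.85 against 6.98, 6.71, 5.55 and 6.88. Rat729 was lowest in both tissues, and Rat738 was the lowest air rat in both. RT1-T24-3 fell by 1.56 ± 0.35 (padj = 0.0106) in liver and differed by -1.80 in kidney (padj = 0.234), again with Rat729 lowest in both. The part of alleles in these values was not tested.

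**Figure D3:**
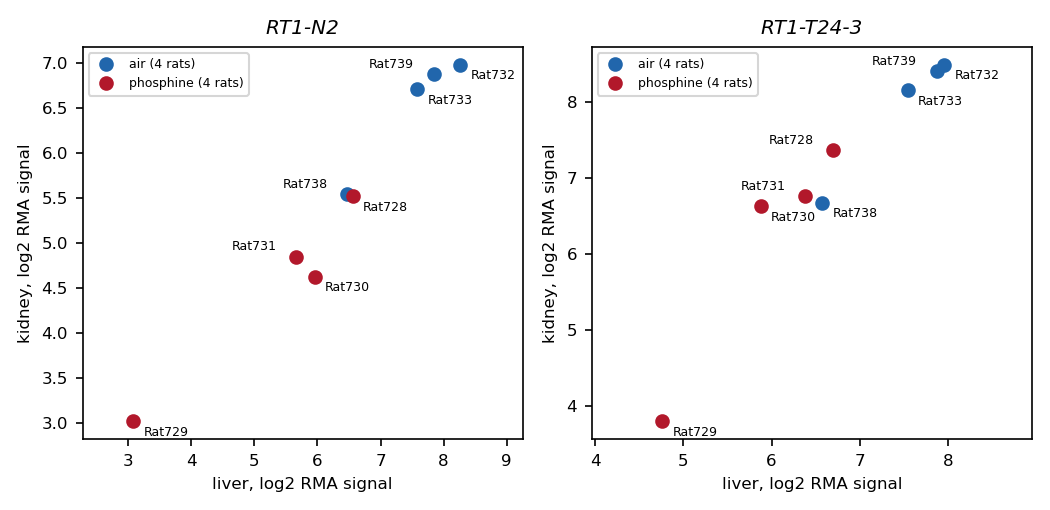
Log2 signals of RT1-N2 (left) and RT1-T24-3 (right) in liver (horizontal axis) and kidney (vertical axis) of the same 8 rats at 3 h, blue for 4 air and red for 4 phosphine rats. Exposed Rat729 is lowest in both tissues, at 3.07 in liver and 3.02 in kidney for RT1-N2.

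The changes of 3 h were then set against the other liver times, which were taken from different rats. Limma called 45 genes at 1 h (0.335%), 30 at 6 h (0.223%) with 2 air rats, and 0 at 24 h (0%), where 960 genes had an unadjusted p under 0.05 and the smallest padj was 0.337. Of the 45 genes called at 1 h, 33 (73.3%) were also called at 3 h, which is 6.37% of the 3 h calls, and all 33 in the same direction. Of the 30 called at 6 h, 10 (33.3%) were called at 3 h. Of the 518 genes called at 3 h, 443 (85.5%) had the same sign at 1 h, 415 (80.1%) at 6 h and 249 (48.1%) at 24 h. The share of all genes with the same sign was not counted. Taken in the direction of 3 h, the median difference of the 518 was 0.731 at 3 h. It was 0.215 at 1 h, 0.24 at 6 h and -0.008 at 24 h.

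Ppargc1a had been raised by 2.56 ± 0.42 at 1 h (padj = 0.00644) and differed by 0.71 at 6 h (padj = 0.749) and 1.36 at 24 h (padj = 0.532). The effect on Ppargc1a at 3 h was not called different from that at 1, 6 or 24 h, so a return is not established. Its air means were 5.01, 3.66, 4.50 and 3.43 at 1, 3, 6 and 24 h. Got1 was called at 1, 3 and 6 h, with rises of 0.81, 1.52 and 1.46, and Slc25a15 likewise, with 0.77, 1.07 and 0.83. Aass and Asl were called at 6 h, with 0.93 and 0.81. The amino acid list thus held 2 calls at 1 h, 7 at 3 h and 4 at 6 h. Osgin1 had fallen by 2.07 at 1 h (padj = 0.0119) and Rsrp1 by 1.47 (padj = 0.000776).

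The difference of the effect itself was called for few genes between 3 h and 1 h, 4 (0.0298%), and between 3 h and 6 h, 7 (0.0521%). Rb1 (-1.28 ± 0.23) and Dnajc12, a co-chaperone of aromatic amino acid hydroxylases (-0.84 ± 0.15), were lower and Mrps2 (0.94 ± 0.17) and Zfp574 (0.99 ± 0.18) higher in effect at 3 h than at 1 h, each with padj near 0.042. Leaving out single rats gave from 0 to 4 calls, and each of the 4 genes lost its call in at least 14 of 19 settings. Against 6 h, the effect on Fkbp5 was larger at 3 h by 2.05 ± 0.29 (padj = 0.00165), from a rise at 3 h to -0.09 at 6 h, with padj = 0.0553 without air Rat762 of 6 h. Srsf4 differed by 1.36 ± 0.17 (padj = 0.000257) and Mid1ip1 by -2.37 ± 0.40 (padj = 0.0174), the latter having turned from a fall to 0.44 at 6 h. Mid1ip1 lost the call without Rat733, Rat762 or Rat763, with padj up to 0.206. Mtss1 (1.23), Rhobtb1 (1.08), Nedd4l (0.93) and Zcchc24 (-0.70) were the other 4. Between 3 h and 24 h 126 genes differed (0.938%), 81 higher and 45 lower in effect, led by Osgin1 (-2.92 ± 0.55, padj = 0.00843), Mfsd2a (2.87 ± 0.64, padj = 0.0253, up to 0.059 without single rats) and Cdkn1a (2.72 ± 0.50, padj = 0.00785).

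**Figure D4:**
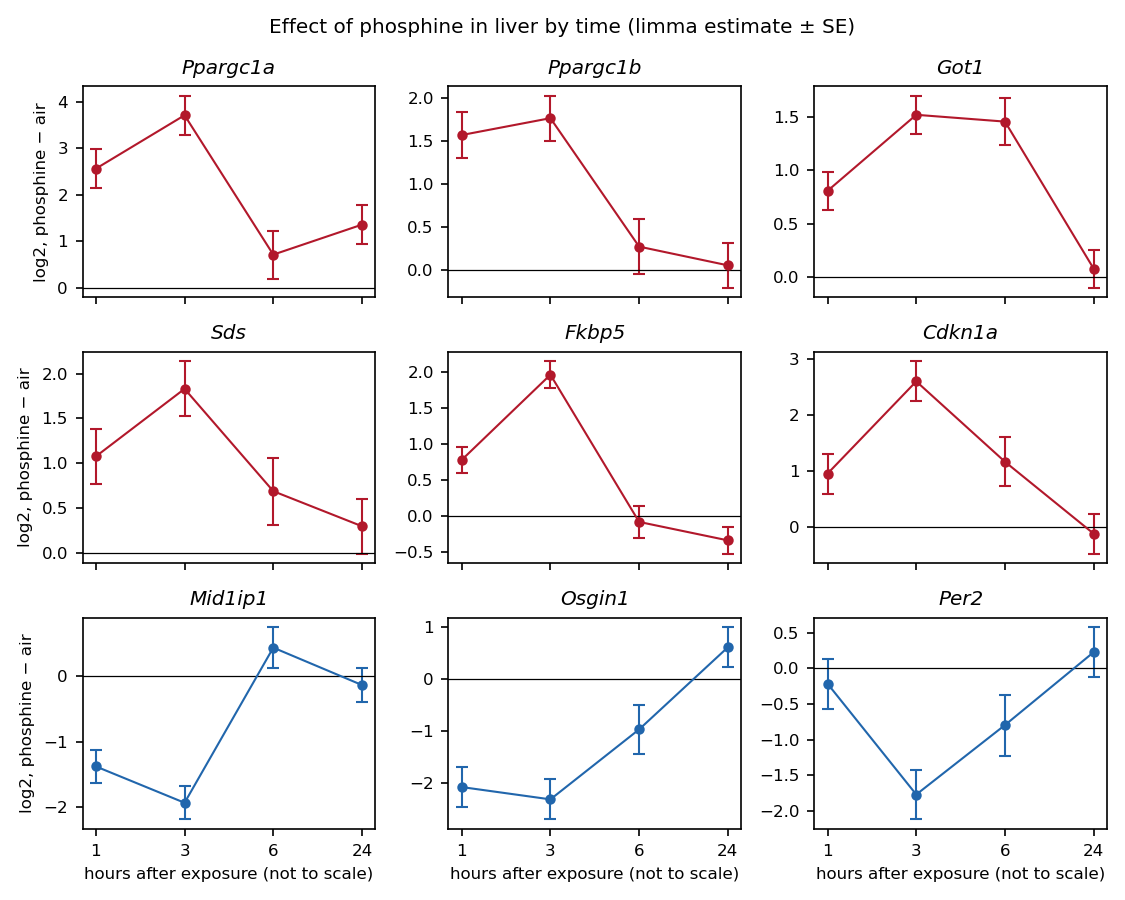
Log2 difference between phosphine and air liver (vertical axis, limma estimate ± SE) at 1, 3, 6 and 24 h after exposure (evenly spaced, not to scale) for 9 named genes, red where the 3 h difference is above 0 and blue where it is below. Each time has its own rats, 4 and 4, except 4 exposed and 2 air rats at 6 h. Fkbp5 goes from 1.96 at 3 h to -0.09 at 6 h, and Got1 from 1.52 to 1.46.

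The air livers of other times served as a further reference. Of the 518 called genes, 237 (45.8%) had all 4 exposed values at 3 h beyond all 14 air liver arrays of any time, as did 356 (2.65%) of all 13438 genes. The called genes were selected for their distance from the 3 h air livers, so a larger share among them follows in part from that choice. Of the 79 named called genes, 5 had an exposed mean within the range of the air means of the 4 times, namely Hnf4a, Igfbp4, Nr1d2, Usp2 and Zfp574. These 5 are named for this count and were chosen after their values were seen.

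Kidney of the same 8 rats gave 197 calls at 3 h (1.47%). Of the 518 liver calls 38 were also called in kidney, 7.34% of the liver and 19.3% of the kidney calls, and 35 of the 38 had the same direction. Both tissues come from the same animals, so these are not independent. Fkbp5 rose by 1.96 in liver and 2.20 in kidney, and Cdkn1a by 2.60 and 2.20 (kidney padj = 5.79e-05 and 0.000721). Crem rose more in kidney, 1.24, than in liver, 0.53, but that difference was not called (padj = 0.095).

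The difference between the tissues was called in 208 genes (1.55%), 109 higher and 99 lower in liver effect. With the rat as a block, which uses the pairing of the 2 tissues, it was called in 111. Ppargc1a differed by 3.27 ± 0.38 (padj = 0.000393), since kidney showed 0.44 (padj = 0.595), and Mfsd2a by 2.51 ± 0.33 (padj = 0.00144), with 0.13 in kidney. Osgin1 differed by -2.62 ± 0.47 (padj = 0.00988), with 0.31 in kidney, and Slc16a6 by 2.27 ± 0.41 (padj = 0.0109). Nr0b2 differed by -2.21 ± 0.36 (padj = 0.00631). Changes in the other direction were those of Gal, the neuropeptide galanin, which rose by 3.23 in kidney and differed by 0.08 in liver, and Tmem252, with 2.32 and -0.69. Gdf15, a hormone of cell stress, rose by 1.72 in kidney and differed by -0.80 in liver. Their differences of effect were -3.15 ± 0.35, -3.0 ± 0.33 and -2.52 ± 0.36.

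**Figure D5:**
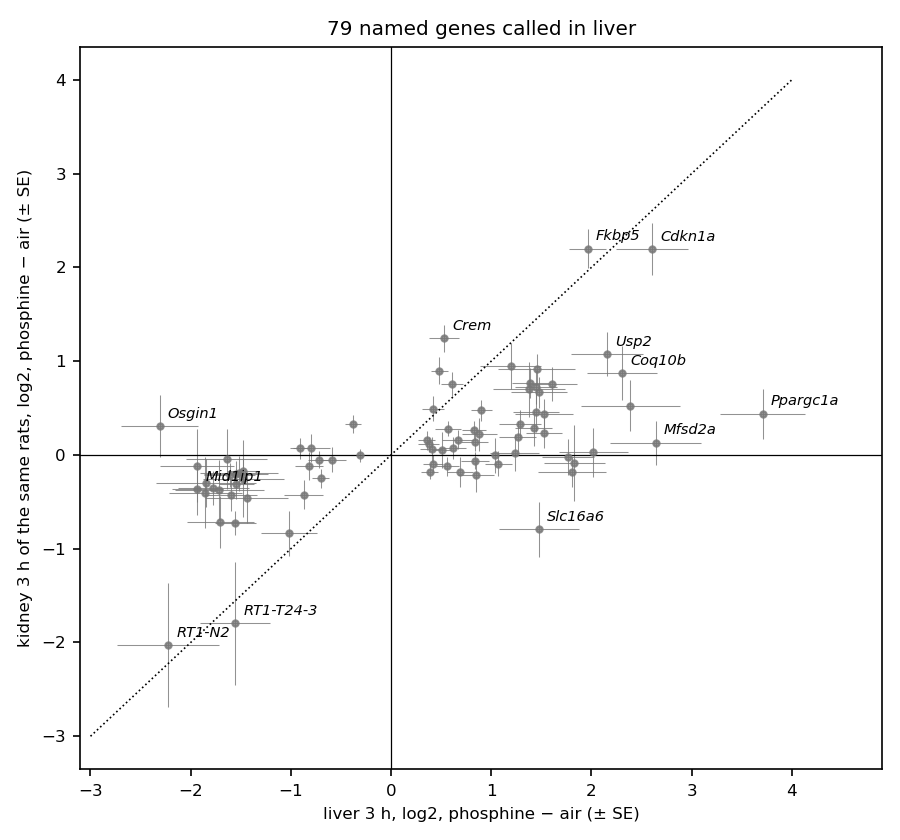
Log2 difference between phosphine and air at 3 h in liver (horizontal axis) and in kidney of the same rats (vertical axis) for the 79 named genes called in liver, with SE bars. The dotted line marks equal effects. Fkbp5 and Cdkn1a lie near it, while Ppargc1a (3.71 in liver, 0.44 in kidney) and Mfsd2a lie far below it.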

How the data were processed

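The authors deposited log2 signals per probe set of perfect-match rat arrays, made with RMA and Partek per the submitters' processing notes, whose versions are not given in the sources used here. RNA was extracted from frozen, pulverised tissue and labelled with biotin. Which arrays entered one normalization is not given in the sources used here. No scanner files were used.

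Of 31139 probe sets, 19063 had 1 gene symbol, 572 several and 11407 none, and 97 were controls. For 3985 genes with several probe sets, the brightest on average across the 174 arrays was kept. Limma 3.58.1 (R 4.3.3) fitted group means over the 30 liver arrays, with eBayes and Benjamini-Hochberg adjustment over 13438 genes. The difference from kidney was fitted on the 16 arrays of the 8 rats, and the rat as a block was the alternative. The pairing rests on shared animals, and correlations of liver with kidney deviations ran from -0.0608 to 0.226. The number of arrays limits the precision. The fit was tested on simulated data.

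The members and gene lists were chosen with earlier results of these data known. Named genes were 20 called genes in each direction, by size of change, that exceeded the overall probe set median in at least their brighter group, up to 6 called members per list, and up to 8 per test of a difference. Alternatives covered normalization, a filter on dim genes, the probe set rule, eBayes options, array weights, the samples in the fit, pooled air livers and leaving out each rat.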

Additional observations from a re-analysis of the deposited data

Results flagged for a closer look

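Sets of 4 values, each for a named gene or marker mean in the exposed or in the air livers, numbered 198. In 10 of them a rat lay far from the other 3. Chance alone gives about 1 in 20, a rate close to 10 in 198. All sets come from the same 8 rats, so they are not independent. Among exposed rats, Rat731 was low for Crem (9.84, others 10.1) and high for the means of pancreas markers (4.16, others 3.92 to 3.95) and lung markers (3.79, others 3.18 to 3.28). Rat730 was high for Slc39a14 (9.82, others 9.5 to 9.55) and for the mean of muscle markers (4.67, others 2.92 to 3.17). Among air rats, Rat739 was low for Ccng1 (7.07, others 7.45 to 7.49) and high for Txnrd1 (9.25, others 9.15 to 9.16). Rat733 was low for Dnajc12 (8.92, others 9.07 to 9.08), Rat738 low for Ifgga2l1 (9.19, others 9.5 to 9.51) and Rat732 high for Sds (10.4, others 9.06 to 9.1).

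The phosphine effect differed between 3 h and 1 h, by limma's test of the difference, for Dnajc12 (-0.838), Mrps2 (0.941), Rb1 (-1.28) and Zfp574 (0.987). Between 3 h and 6 h it differed for Fkbp5 (2.05), Mid1ip1 (-2.37), Mtss1 (1.23), Nedd4l (0.927), Rhobtb1 (1.08), Srsf4 (1.36) and Zcchc24 (-0.697). Between 3 h and 24 h the largest were Cdkn1a (2.72), Coq10b (2.56), Dusp6 (-2.4), Fkbp5 (2.31), Ifgga2l1 (-2.32), Mfsd2a (2.87), Osgin1 (-2.92) and Usp2 (2.43). Between liver and kidney they were Gal (-3.15), Gdf15 (-2.52), Mfsd2a (2.51), Nr0b2 (-2.21), Osgin1 (-2.62), Ppargc1a (3.27), Slc16a6 (2.27) and Tmem252 (-3.0). Several of these calls were lost in some alternative settings. From 1 h, Dnajc12 lost it in 16 of 19, Mrps2 in 15, Rb1 in 14 and Zfp574 in 17. From 6 h, Zcchc24 lost it in 13 of 17, Nedd4l and Rhobtb1 in 9 each, Mtss1 in 5, Mid1ip1 in 3 and Fkbp5 in 1, and Srsf4 kept it in all 17. From 24 h, Mfsd2a lost it in 7 of 19 (padj up to 0.059), and the other 7 genes kept it in all 19. From kidney, Slc16a6 lost it without Rat733 or Rat739 (padj up to 0.0573), and the other 7 kept it in all settings that tested them.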

How the results depend on the processing

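The 518 calls in liver at 3 h became 1007 with array weights, 260 with only the 2 groups in the fit and 974 with air livers of all times pooled, and from 308 to 510 without single rats. Higher genes were 51.5% of the calls, 58.5% with median centring, 40.8% with pooled air and 63.4% without Rat730. The 4 differences from 1 h became 1 with quantile normalization, 1 with median centring and 8 without dim genes, and from 0 to 4 without single rats. The 7 differences from 6 h became 23, 14 and 18 in those settings, and from 1 to 8 without single rats. The 126 differences from 24 h became 199 without dim genes, and from 69 to 177 without single rats, with 80 without Rat731 and 69 without Rat739. The 208 differences from kidney became 111 with the rat as a replicate block, which uses the pairing of tissues, and from 92 to 244 without single rats. The cause of these shifts was not tested. Of 79 named genes called in liver at 3 h, 39 kept the call in all 17 settings, 40 lost it in at least 1, and 16 lost it without Rat730. None of the 79 reversed. The number of rats, 4 in each group, and 2 air rats at 6 h limit what could be called.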
